A study of Homo sapiens with 7 samples.

Results

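IFN-λ4 was compared with IFN-λ1 at 6 h and at 16 h of treatment, on 4 of the 7 arrays of the series, chosen as the 2 arrays of IFN-λ4 and the 2 arrays of IFN-λ1 and paired by time. Huh7, a human hepatoma line with a hepatocyte-like character, was given either interferon at 20 ng/ml, a dose matched by mass, and the labels give neither the activity of the proteins in units nor the source of IFN-λ4. The other arrays were 1 of untreated cells at 0 h, whose values stand beside those of the treated cells below, and 2 of IFN-α, which were used in the normalization and in alternative fits. Total RNA was amplified, labelled with Cy5 and hybridised, and each array gave 1 intensity for each of 31741 probes. Each combination of interferon and time was 1 array, so nothing repeats within a condition. A difference at 1 time has no replicate check, and the comparison of both times has 2 pairs.

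Both proteins belong to the type III interferons. They are known to bind the same receptor, made of IFNLR1 and the shared chain IL10RB, and to signal through JAK1 and TYK2 to STAT2, which works with IRF9 in the factor that binds interferon-stimulated response elements (ISREs) at antiviral genes. Hepatocytes and other epithelial cells respond to type III interferons, while most other cell types carry little IFNLR1. USP18 and the SOCS proteins are induced in turn and limit interferon signalling.

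All 9 hepatocyte markers measured, of 10 listed, were above the dim level described below, and their median rank lay between the 99.4 and 99.7 percentile of genes on every one of the 5 arrays used here. The median intensity of all probes as deposited was 601 and 551 for IFN-λ1 at 6 h and 16 h, 509 and 552 for IFN-λ4, and 609 for untreated cells, so the 6 h arrays of the interferons differed in overall brightness. After quantile normalization, which gives every array the same distribution, 12835 genes above the 30th percentile of mean level, an intensity of 265.4, were compared. Differences are given as log2 of IFN-λ4 minus log2 of IFN-λ1, so a negative value means lower with IFN-λ4.

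The profiles with the 2 interferons were close at both times. No gene passed limma's test with time as a block and Benjamini-Hochberg adjustment at 0.05 in either direction (0% of 12835), the smallest adjusted p was 0.0839, and 1741 genes (13.6%) had an unadjusted p under 0.05, 1035 higher and 706 lower with IFN-λ4. The count of 0 depended on the settings: median centring gave 254 calls higher and 53 lower, the mean over probes 8 higher and no filter on dim genes 1 in each direction. With the values as normalized here, 90.8% of genes lay within 1.5-fold between the interferons at 6 h and 97.4% at 16 h. The median 95% interval of limma's difference reached 0.33 log2 units to each side, and the whole interval lay within 2-fold for 12532 genes. The spread behind these intervals, and behind the moderated SE given for genes below, has 1 residual degree of freedom per gene, moderated over all genes. With 8.8 prior degrees of freedom it draws mostly on other genes, so it is not the spread between a gene's own pairs. It holds any difference between the times as well as array error. Whether smaller differences exist was not detectable with 2 pairs of arrays.

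A gap of 2-fold or more was seen for 139 genes (1.08%) at 6 h, of which 73 were on the higher side with IFN-λ4 (0.569%) and 66 on the lower (0.514%). At 16 h it was seen for 24 (0.187%), with 17 on the higher side (0.132%) and 7 on the lower (0.0545%). A gap of 1.5-fold was seen for 9.17% of genes at 6 h, 4.46% higher and 4.71% lower, and for 2.64% at 16 h, 2.04% higher and 0.6% lower. The split at 6 h depended on the scaling: it was 109 higher and 59 lower with each array centred on its median, and 34 higher and 216 lower with the deposited scaling. Of the 73 genes on the higher side at 6 h, 11 kept a gap of 1.5-fold at 16 h, as did 2 of the 66 on the lower side. Past 2-fold at both times, 4 genes were higher with IFN-λ4 (0.0312%), 0 were lower and 1 went opposite ways (0.00779%). The 6 h and 16 h differences share no array, and across genes their Pearson r, as a description, was 0.24 over all 12835 genes and 0.28 over the 12816 left without the 19 genes marked as resting on 1 extreme spot.

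Antiviral effector genes stood well above untreated cells with both interferons, at nearly the same median level at 6 h and at a slightly lower one with IFN-λ4 at 16 h. Of 61 listed effectors 51 were above the dim level. At least 2-fold above the untreated array stood 34 of the 51 with IFN-λ1 and 35 with IFN-λ4 at 6 h, and 36 and 35 at 16 h. No effector was 2-fold apart between the interferons at either time, beside 1.08% of all genes at 6 h and 0.187% at 16 h. With 51 effectors, a count of 0 is near those shares. The median difference was 0.03 at 6 h, with 23 of 51 lower with IFN-λ4 beside 46.7% of all genes. It was -0.23 at 16 h, with 38 of 51 lower, or 74.5%, beside 50.4% of all genes and a median of 0.00. No effector passed limma's adjusted test; at an unadjusted p under 0.05, 4 were lower and 2 higher, or 7.84% and 3.92%, beside 5.5% and 8.06% of all genes. At both times 21 of the 51 were lower, or 41.2% beside 29.6% of all genes, and 11 were higher, or 21.6% beside 32.3%. limma's 95% interval lay within 2-fold for 50 of the 51 effectors, or 98%, beside 97.6% of all genes. The list holds genes that respond together, so its members are not independent, and in bulk RNA fewer responding cells and less RNA per cell cannot be told apart.

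The promoters of 3 of these genes are shown because the ISRE is the element through which both interferons are known to act. They are the 250 bases before the RefSeq start in GRCh38.p14, read 5′ to 3′ on the gene's strand, with the ISRE core (GAAA, any 2 bases, GAAA), searched on both strands, in capitals; overlapping matches run together, and a match on the other strand reads TTTC, 2 bases, TTTC. The core occurred in 25 of the 50 effector promoters in the RefSeq table (50%) and in 3.07% of all 27305 promoters. The 3 printed all hold it, while that of OAS1, a gene described below, held 0 matches and is not printed. ISG15 lies on the forward strand at chr1:1013247-1013496 and held 2 overlapping matches, IFIT1 on the forward strand at chr10:89392373-89392622 held 2, and IFI6 on the reverse strand at chr1:27672193-27672442 held 3.
ISG15: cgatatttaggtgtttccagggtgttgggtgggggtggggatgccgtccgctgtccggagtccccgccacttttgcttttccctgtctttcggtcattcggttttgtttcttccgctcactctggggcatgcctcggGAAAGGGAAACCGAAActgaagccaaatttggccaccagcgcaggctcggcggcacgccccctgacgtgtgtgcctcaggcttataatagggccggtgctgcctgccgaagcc
IFIT1: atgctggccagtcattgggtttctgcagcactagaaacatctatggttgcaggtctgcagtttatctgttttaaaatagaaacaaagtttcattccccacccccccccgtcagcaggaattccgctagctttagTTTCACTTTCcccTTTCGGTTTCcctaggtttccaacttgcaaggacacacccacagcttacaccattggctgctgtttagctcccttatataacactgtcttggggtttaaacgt
IFI6: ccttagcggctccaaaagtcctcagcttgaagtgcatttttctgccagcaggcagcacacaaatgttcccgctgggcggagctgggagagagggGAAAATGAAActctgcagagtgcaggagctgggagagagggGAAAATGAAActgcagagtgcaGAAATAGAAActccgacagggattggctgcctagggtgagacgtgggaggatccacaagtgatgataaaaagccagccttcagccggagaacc
The 22 measured effectors with the core had a median difference of -0.28 at 16 h and the 22 without it -0.19, so both groups lay below 0. A match of these letters is a description and does not show binding.

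IFIT1, which binds viral RNA lacking cap methylation, had the highest level of the effectors shown. Its intensity was 798 in untreated cells, 44988 with IFN-λ1 and 37934 with IFN-λ4 at 6 h, and 72209 and 53515 at 16 h. IFN-λ4 was lower at both times, by differences of -0.25 and -0.43. In limma IFIT1 had a mean of -0.34 ± 0.10 (moderated SE, 2 pairs), a 95% interval of -0.57 to -0.11 and an adjusted p of 0.242. Its second probe gave -0.62 and -0.72. Against untreated cells the level of this gene was 56.4-fold and 47.5-fold at 6 h and 90.5-fold and 67.1-fold at 16 h.

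ISG15, the ubiquitin-like modifier, had intensities of 1377 in untreated cells, 21209.8 with IFN-λ1 and 20344 with IFN-λ4 at 6 h, and 36338 and 30979 at 16 h. Its untreated value was marked as an extreme spot, at -4.61 log2 units from the median of the other 6 arrays. The 6 h levels nearly coincided and the 16 h level was lower with IFN-λ4 (mean difference -0.14, 95% interval -0.38 to 0.09, adjusted p = 0.589 in limma). IFI6, a mitochondrial and endoplasmic reticulum protein that limits flavivirus replication, rested at 109 in untreated cells, reached 4072 with IFN-λ1 and 3759 with IFN-λ4 at 6 h, and 14919 and 15059 at 16 h. Its levels thus lay close at both times, with an interval of -0.32 to 0.22. MX1, a dynamin-like GTPase that blocks influenza and other viruses, had a value of 406 in untreated cells, 5713 and 4922 at 6 h, and 10736 and 9543 at 16 h, with IFN-λ4 the lower in both pairs.

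OAS1 and OAS3, oligoadenylate synthetases that make the activator of RNase L, parted at the later time. OAS1 had an intensity of 107 in untreated cells, 3211 with IFN-λ1 and 3142 with IFN-λ4 at 6 h, and 5826 and 4118 at 16 h. OAS3 had 357 in untreated cells, 5069 and 5107 at 6 h, and 14069 and 10437 at 16 h. Both pairs coincided at 6 h and the IFN-λ4 array was the lower at 16 h, by -0.50 and -0.43. The second probe of OAS1 gave 0.05 and -0.63. Averaged over the times, neither gene's interval left out 0 (-0.60 to 0.07 and -0.52 to 0.10).

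Among the 21 effectors lower with IFN-λ4 at both times, 3 were each lower by about 0.4 or more in both pairs. EIF2AK2, the kinase PKR that halts translation on sensing double-stranded RNA, had an intensity of 1216 in untreated cells, 2263 with IFN-λ1 and 1614 with IFN-λ4 at 6 h, and 5203 and 3719 at 16 h. SP110, a nuclear body protein, had 567 in untreated cells, 4989 and 3554 at 6 h, and 4683 and 3373 at 16 h. CMPK2, a mitochondrial nucleotide kinase, had 149 in untreated cells, 591 and 448 at 6 h, and 866 and 514 at 16 h. In each gene the IFN-λ1 array was the higher at both times. The mean differences were -0.49 ± 0.14, -0.48 ± 0.13 and -0.58 ± 0.18 (moderated SE, 2 pairs), with adjusted p values of 0.22, 0.205 and 0.254 in limma. The second probe of SP110 gave -0.12 and -0.48, and that of CMPK2, which is dim, -0.65 and -0.94. IFIH1, which encodes the RNA sensor MDA5, was at 114 in untreated cells, 1374 and 1107 at 6 h, and 2087 and 1239 at 16 h. Its differences were -0.31 and -0.75 (interval of the mean -0.91 to -0.15, adjusted p = 0.258 in limma). RIGI, the sensor of short and triphosphorylated RNA, had differences of -0.14 and -0.46, and of -1.05 and -0.48 on its second probe, with the IFN-λ4 array the lower at both times on each.

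Other effectors crossed between the times. XAF1, a proapoptotic protein, had differences of 0.59 at 6 h and -0.32 at 16 h, but -0.51 and -0.53 on its dim second probe. OASL, an inactive relative of the synthetases, had 0.48 and -0.43. HERC5, the ligase that attaches ISG15, had 0.24 and -0.59, and IFITM1, which blocks viral entry at membranes, 0.21 and -0.36. On the probes used IFN-λ4 was the higher at 6 h and the lower at 16 h for these 4 genes. The sign differed between the times in 19 of the 51 effectors and in 4893 of all 12835 genes, a similar share. On the higher side at both times stood IFITM2, a relative of IFITM1, with 0.74 and 0.57, and PML, the nuclear body scaffold, with 0.38 and 0.30. PML had 4 probes, and the others gave -0.27 and -0.06, -0.57 and -0.15, and 0.20 and -0.13, so its higher level rests on the brightest. IFITM2 had intensities of 639 in untreated cells, 458 with IFN-λ1 and 764 with IFN-λ4 at 6 h, and 603 and 898 at 16 h. It was therefore not above untreated with IFN-λ1 at either time, and the close paralogs of its family may share probe signal.

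**Figure D1:**
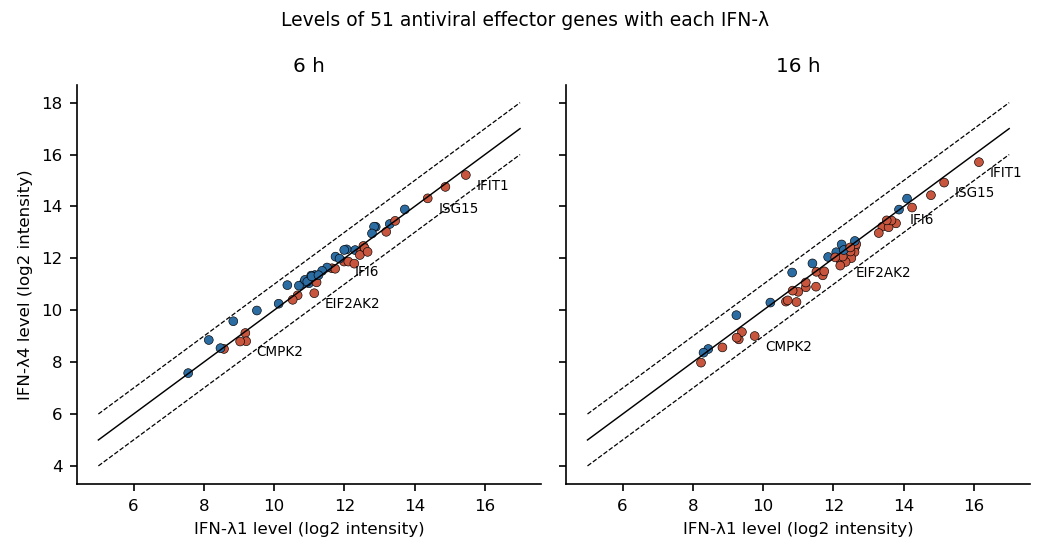
Normalized log2 intensity of the 51 antiviral effectors with IFN-λ1 (horizontal axis) and IFN-λ4 (vertical axis) at 6 h and 16 h, orange where IFN-λ4 was the lower and blue where it was the higher. The solid line marks equality and the dashed lines 2-fold; all points lie within them, 23 of 51 are orange at 6 h and 38 of 51 at 16 h.

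Induced genes were also counted without a list. LRRC20, MPEG1, TMEM165 and MAP3K2, which rest on extreme untreated spots, were left aside. ISG15, whose untreated spot was marked in the same way, was kept. With that, 69 genes were at least 2-fold above the untreated array on all 4 IFN-λ arrays. This choice was made after their values were seen and is symmetric between the interferons. Their median difference was 0.09 at 6 h, with 26 of 69 lower with IFN-λ4, or 37.7% beside 46.7% of all genes, and -0.16 at 16 h, with 45 of 69 lower, or 65.2% beside 50.4%. At both times 22 were lower, or 31.9% beside 29.6%, and 20 were higher, or 29% beside 32.3%, which is near the share of all genes. At 6 h 1 of the 69 was 2-fold apart, and at 16 h 0 were, beside 1.08% and 0.187% of all genes. The effectors make up a large share of these genes, so the counts overlap.

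USP18, the protease that removes ISG15 from proteins and blocks signalling at the type I receptor, was lower with IFN-λ4 at both times by more than any other gene, taking the smaller of its differences, but only on 1 of its 2 probes. On the brighter probe its intensity was 1302 in untreated cells, 4973 with IFN-λ1 and 2772 with IFN-λ4 at 6 h, and 11359 and 6187 at 16 h. IFN-λ1 was the higher by 1.79-fold and 1.84-fold (mean -0.86 ± 0.12, moderated SE, 2 pairs, 95% interval -1.14 to -0.58, adjusted p = 0.146 in limma). On the second probe the intensities were 1022 in untreated cells, 4640.5 and 4486 at 6 h, and 5190.4 and 4663 at 16 h. That probe gave differences of -0.05 and -0.16, so both probes lay above untreated with either interferon, and they disagree on the size of the difference between the interferons. The RefSeq promoter table held no entry for it.

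The other negative regulators showed no common direction. Of 12 measured, USP18 included, 5 were lower at 6 h and 6 at 16 h, or 41.7% and 50%. Those are near the 46.7% and 50.4% of all genes, and the medians were 0.08 and 0.00. SOCS1, which inhibits the JAK kinases, had an intensity of 1521 in untreated cells, 1169.6 with IFN-λ1 and 842 with IFN-λ4 at 6 h, and 1429 and 1284 at 16 h, so it was not above untreated with either. SOCS3 had differences of 0.30 and 0.04 and SOCS2 of 0.21 and 0.18, both with intervals that include 0. The second probe of SOCS3, also above the dim level, gave 0.24 and 0.99, with 221 for IFN-λ1 and 439.6 for IFN-λ4 at 16 h. TRIM24, a repressor of the interferon response in mouse liver, was higher with IFN-λ4 by 0.32 and 0.41 (adjusted p = 0.289 in limma).

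On the probes used, the receptor and its signalling chain had close levels. None of the 12 measured members of 15 listed was 1.5-fold apart at either time, beside 9.17% of all genes at 6 h and 2.64% at 16 h. With 12 members, a count of 0 is near those shares. The medians were 0.07 and 0.03. IFNLR1, the specific chain of the receptor, stayed at or near the dim level, with intensities of 254 in untreated cells, 275 with IFN-λ1 and 316 with IFN-λ4 at 6 h, and 238 and 255 at 16 h. IL10RB, the shared chain, had 1259 in untreated cells, 1567 and 1292 at 6 h, and 1249.9 and 1125 at 16 h. Its second probe went the other way, by 0.97 and 0.50, so the probes disagree on the sign. JAK1, the kinase bound to IFNLR1, had differences of 0.10 and -0.10, while its much dimmer second probe gave -1.51 and -0.33.

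STAT2 had an intensity of 2994 in untreated cells, 6203 with IFN-λ1 and 6489.7 with IFN-λ4 at 6 h, and 6406 and 5703 at 16 h. IRF9, its partner in the ISRE-binding factor, had 7749 in untreated cells, 47205 and 39394 at 6 h, and 31635 and 35369.8 at 16 h. IRF1, a transcription factor of antigen presentation genes, had 1550.5 in untreated cells, 3592 and 4364 at 6 h, and 3475 and 3640.3 at 16 h. On these probes all 3 stood above untreated with both interferons, and the order of the interferons changed with time for STAT2 and IRF9. The dimmer second probe of STAT2 read 752 in untreated cells, 726 and 575 at 6 h, and 1121 and 913 at 16 h, so it was not above untreated at 6 h and was lower with IFN-λ4 in both pairs. IRF9 on its second probe had differences of -0.08 and -0.04, and that of IRF1 0.42 and -0.08. The intervals of the probes used were -0.34 to 0.23, -0.32 to 0.22 and -0.13 to 0.48.

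For MHC class I antigen presentation 15 of 21 genes were measured, and their median difference was 0.05 at 6 h and -0.02 at 16 h. TAP1, the peptide transporter, had intensities of 1060.3 in untreated cells, 4338 with IFN-λ1 and 4445 with IFN-λ4 at 6 h, and 4588 and 3608 at 16 h. PSMB9, an immunoproteasome subunit, had differences of 0.51 and -0.02. NLRC5, the transactivator of these genes, was the only member 2-fold apart, by -1.06 at 6 h, beside 1.08% of all genes at 6 h. It had 0.21 at 16 h and its second probe gave -0.27 and -0.32.

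Of the 17 chemokines and cytokines measured, 2 were 2-fold higher with IFN-λ4 at 6 h, beside 0.569% of all genes. CCL5, which draws T cells and other leukocytes, had an intensity of 3601 in untreated cells, 1839.6 with IFN-λ1 and 5313 with IFN-λ4 at 6 h, and 2365 and 2909.6 at 16 h. The 6 h pair parted by 2.89-fold, with IFN-λ1 below and IFN-λ4 above the untreated level, and the 16 h pair lay close. Its second probe, dimmer but above the dim level, gave 0.41 and 0.20. That probe read 965 in untreated cells, 1158.5 with IFN-λ1 and 1536 with IFN-λ4 at 6 h, so there IFN-λ1 was not below untreated. The adjusted p of the brighter probe over both times was 0.199 in limma. TNFSF13B, the B cell survival factor BAFF, had 571 in untreated cells, 322 and 728 at 6 h, and 571 and 578 at 16 h. CXCL10, a chemokine induced by interferons, was lower with IFN-λ4 by -0.24 and -0.63 (interval of the mean -0.86 to -0.01, adjusted p = 0.36 in limma). CXCL8 and CCL15, chemokines for neutrophils and monocytes, were higher by 0.51 and 0.43, and by 0.71 and 0.49. Other chemokines did not share this direction. CXCL5 had -0.20 and -0.41, and -0.10 and -0.23 on its second probe. CXCL1 had 0.11 and -0.22, and -0.001 and -0.38 on its second probe. Of the 17, 6 were higher at both times and 6 lower, 35.3% each, beside 32.3% and 29.6% of all genes. The median of all 17 measured was 0.11 at 6 h and -0.07 at 16 h.

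**Figure D2:**
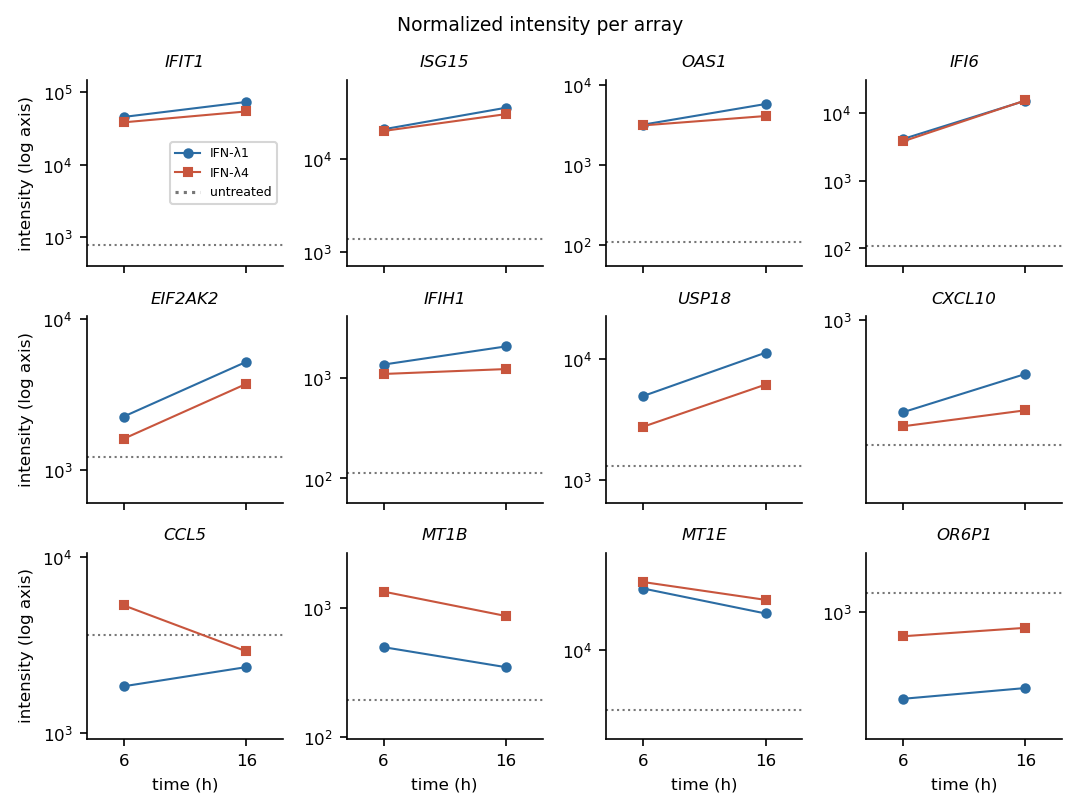
Normalized intensity on a log axis at 6 h and 16 h for 12 named genes, 1 array per point, with IFN-λ1 as blue circles, IFN-λ4 as orange squares and the untreated array as a dotted line. IFIT1, EIF2AK2 and IFIH1 lay lower with IFN-λ4 at both times, OAS1 mainly at 16 h, IFI6 lay close at both times, and MT1B and OR6P1 lay higher at both; USP18 is shown on its brighter probe.

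The metallothioneins, which hold zinc and copper in the cell and are induced by metals, glucocorticoids and stress, were the list with every measured member on the higher side. Of 9 listed 5 were measured, and all 5 were higher with IFN-λ4 at both times, beside 32.3% of all genes, with medians of 0.22 and 0.46. MT1B had an intensity of 193 in untreated cells, 495 with IFN-λ1 and 1327 with IFN-λ4 at 6 h, and 346 and 860.1 at 16 h. It was 2.68-fold and 2.48-fold higher with IFN-λ4 (mean 1.37 ± 0.17, moderated SE, 2 pairs, 95% interval 0.99 to 1.75), with an adjusted p of 0.0839 in limma. MT1A had 1124 in untreated cells, 2963 and 5281 at 6 h, and 2152 and 3174 at 16 h, in the same order at both times.

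The brighter members parted less. MT1E had an intensity of 2445 in untreated cells, 42300.2 with IFN-λ1 and 49263 with IFN-λ4 at 6 h, and 23499.9 and 32379.9 at 16 h. MT2A, the main form in many tissues, had 11850.0 in untreated cells, 82973 and 85328 at 6 h, and 55681 and 68006 at 16 h. MT1X had differences of 0.03 and 0.39. All 3 lay several-fold above the untreated array with both interferons and were lower at 16 h than at 6 h, and MT1X and MT2A were nearly equal between the interferons at 6 h. These paralogs are close in sequence and their probes may share signal, so the 5 are not independent. At an unadjusted p under 0.05 MT1A, MT1B and MT1E were higher, 3 of 5 beside 8.06% of all genes, and none passed the adjusted test. MT1B passed it with median centring and with the mean over probes.

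The promoters of MT1B and MT2A are shown because metallothioneins are known to be controlled through metal response elements (MREs). They lie on the forward strand at chr16:56651636-56651885 and chr16:56608334-56608583 in GRCh38.p14, again the 250 bases before the RefSeq start, with the cores TGCACNC and TGCGCNC on either strand in capitals. MT1B held 3 matches and MT2A 7. All 4 metallothionein promoters in the table held a core, as did 24.7% of all promoters, and 0 of the 4 held the ISRE core.
MT1B: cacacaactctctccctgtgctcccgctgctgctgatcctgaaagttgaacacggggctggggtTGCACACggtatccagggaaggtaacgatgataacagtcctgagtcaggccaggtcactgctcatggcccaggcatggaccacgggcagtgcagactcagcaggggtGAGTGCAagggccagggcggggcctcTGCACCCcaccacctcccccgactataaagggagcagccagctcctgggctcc
MT2A: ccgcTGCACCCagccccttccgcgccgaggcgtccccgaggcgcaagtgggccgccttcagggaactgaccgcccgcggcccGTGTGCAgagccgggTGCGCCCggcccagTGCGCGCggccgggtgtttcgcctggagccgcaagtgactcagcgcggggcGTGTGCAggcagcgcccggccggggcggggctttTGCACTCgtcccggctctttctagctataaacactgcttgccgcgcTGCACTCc

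Apart from MT1B, the genes 2-fold higher with IFN-λ4 at both times were OR6P1, MRGPRX1 and NEUROD2, none of which is on the antiviral list. OR6P1, an olfactory receptor, had an intensity of 1386 in untreated cells, 224 with IFN-λ1 and 656 with IFN-λ4 at 6 h, and 269 and 759 at 16 h. MRGPRX1, an itch receptor of sensory neurons, had 1009.7 in untreated cells, 893 and 2234 at 6 h, and 904 and 1829 at 16 h. NEUROD2, a neuronal transcription factor, had 325 in untreated cells, 313 and 683 at 6 h, and 219 and 546 at 16 h. OR6P1 lay below untreated with both interferons, while MRGPRX1 lay near it with IFN-λ1 and above it with IFN-λ4. NEUROD2 was near untreated with IFN-λ1 at 6 h and below it at 16 h, and above it with IFN-λ4 at both times. Their mean differences were 1.52, 1.17 and 1.22, with adjusted p values of 0.0839, 0.14 and 0.147 in limma. The second probe of NEUROD2, which is dim, gave 0.11 and 0.48. These are genes of other tissues at low to middle intensity, and whether the signal is their messenger RNA was not tested. Of the 125 olfactory receptor genes above the dim level, 51 were higher at both times, or 40.8%, beside 32.3% of all genes.

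The next genes on the higher side, by the smaller of both differences, were AP3B2, AMELX, ABCA17P, DRC11, OR10T2 and PLEKHD1. AP3B2, a neuronal adaptor subunit, had differences of 0.92 and 1.12, and ABCA17P, a transporter pseudogene, 1.22 and 0.87. AMELX, an enamel protein gene, had 0.91 and 1.05 on the probe used, but its dim second probe gave 0.06 and -0.10. On the lower side, with USP18, stood ROCK1, MTRNR2L3, ACP3, GOLGA6L2, GRIN2C, MORF4L2, DEFB131A, NEK4 and MROH7. GOLGA6L2 had a second probe above the dim level that gave -0.09 and -0.01, and both other probes of DEFB131A, which are dim, were slightly positive at both times. ROCK1, a kinase of the actin cytoskeleton, had an intensity of 1447 in untreated cells, 1161 with IFN-λ1 and 262 with IFN-λ4 at 6 h, and 3143 and 1927 at 16 h. Only the 6 h array of IFN-λ4 stood far below the others. At 1.5-fold, 69 genes were higher at both times and 7 lower.

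Most of the largest single differences were seen at 1 time. DHX15, an RNA helicase of splicing, had an intensity of 107546 in untreated cells, 94254 with IFN-λ1 and 18448 with IFN-λ4 at 6 h, and 105802 and 108932 at 16 h. RRP15, a ribosome assembly factor, had 14056 in untreated cells, 13248 and 14079.7 at 6 h, and 14965 and 5740.2 at 16 h. On these probes 1 array of IFN-λ4 stood apart from 4 that lay close together. The second probe of RRP15, dimmer but above the dim level, gave -0.45 and -0.03 and did not show the low 16 h value. GBF1, an exchange factor of the Golgi, was lower on the 16 h array of IFN-λ1 alone, with 12442 in untreated cells, 14006 and 19096 at 6 h, and 5913 and 13409 at 16 h. EGR3, an immediate early gene, had -1.15 and -0.05, and TSNAXIP1, a testis gene, 1.47 and 0.30 on the brighter probe and 0.31 and 0.03 on the second. MAP2K4, a kinase of the JNK pathway, was at the floor on the 6 h array of IFN-λ1, at 4.8 in untreated cells and between 5043 and 5100.2 on the other 3 arrays, so its 6 h difference rests on 1 spot. Differences at 1 time were more frequent among dim genes: among the 3209 dimmest genes 37 were 2-fold higher and 27 lower at 6 h, and among the 3209 brightest 0 and 2.

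**Figure D3:**
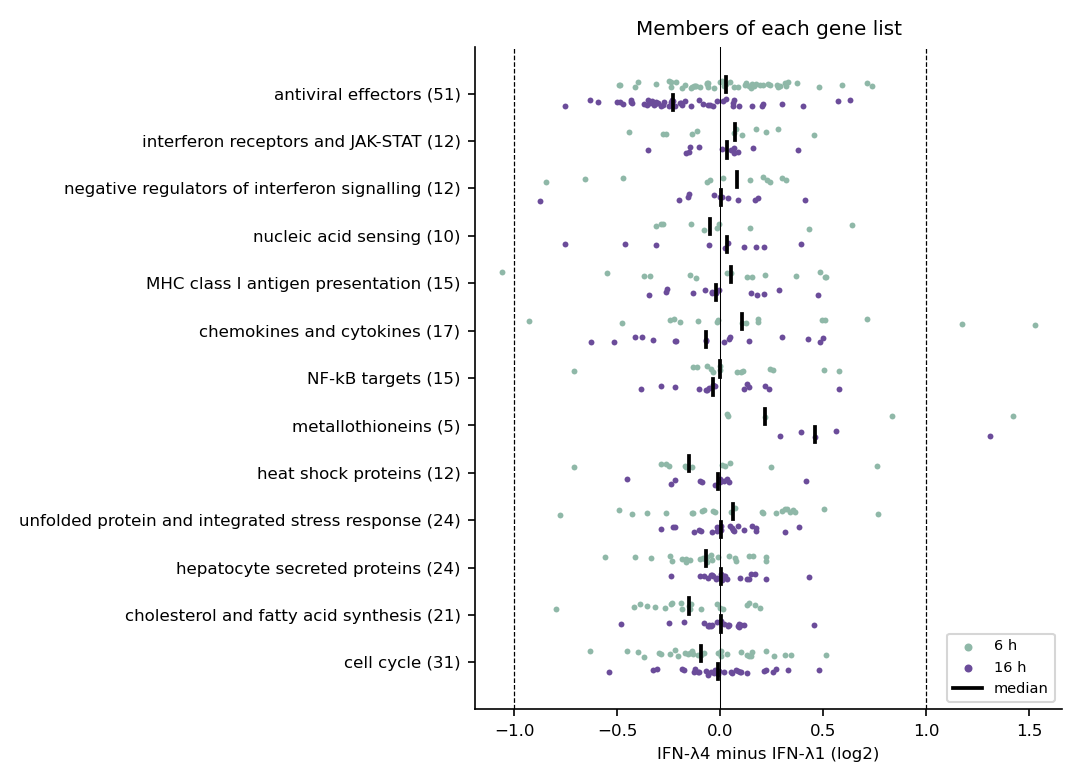
Difference between IFN-λ4 and IFN-λ1 in log2 units for the measured members of 13 gene lists, with 6 h in green and 16 h in purple and the median as a black bar; the number of members stands beside each name and dashed lines mark 2-fold. The median of the antiviral effectors lies at 0.03 at 6 h and -0.23 at 16 h, and all 5 metallothioneins lie to the right of 0 at both times.

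Stress, liver and growth genes lay close between the interferons. The unfolded protein and integrated stress responses had medians of 0.06 and 0.00 over 24 measured genes. They are of interest because IFN-λ4 is known to be secreted poorly by cells that make it, while here the protein was added from outside. Of the 24 genes 0 were 2-fold apart, beside 1.08% of all genes at 6 h and 0.187% at 16 h. PDIA6, an endoplasmic reticulum chaperone, had -0.78 and -0.29, and EDEM1, a factor of protein disposal from that organelle, 0.51 and 0.38. Heat shock genes had medians of -0.15 and -0.01. HSP90AA1 had an intensity of 62740.0 in untreated cells, 72536 with IFN-λ1 and 44343 with IFN-λ4 at 6 h, and 91643 and 67093 at 16 h, but its second probe gave 0.40 and 0.14. DNAJB1, a cochaperone, was higher by 0.76 and 0.41 (adjusted p = 0.187 in limma).

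The 24 measured genes of hepatocyte secreted proteins had medians of -0.07 and 0.01, and the 21 of cholesterol and fatty acid synthesis -0.15 and 0.01. ALB, albumin, had an intensity of 192806 in untreated cells, 200325 with IFN-λ1 and 136036 with IFN-λ4 at 6 h, and 204319.9 and 191208 at 16 h, and only the 6 h array of IFN-λ4 stood below the rest. SQLE, an enzyme of cholesterol synthesis, had -0.80 and -0.06. The 31 cell cycle genes had medians of -0.10 and -0.01. MCM4 and MCM7, subunits of the replicative helicase, went opposite ways, with -0.63 and -0.33 against 0.51 and 0.22. BCL3, a regulator of NF-κB, was higher with IFN-λ4 by 0.58 and 0.57, while the 15 measured NF-κB targets had medians of 0.00 and -0.04. No member of these lists passed limma's adjusted test.

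Of the markers of other cell types on the array, 8 of 11 for leukocytes, 5 of 9 for fibroblasts and stellate cells and 5 of 7 for endothelium were above the dim level, with median ranks between the 35.4 and 49.5 percentile of genes. The summed intensity of 11 leukocyte markers was between 21312 and 23219 on the 4 IFN-λ arrays, that of 9 fibroblast and stellate markers between 19507 and 27491, the highest on the 6 h array of IFN-λ1, and that of 7 endothelial markers between 4935 and 6475. Their part in the differences above was not tested.

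**Figure D4:**
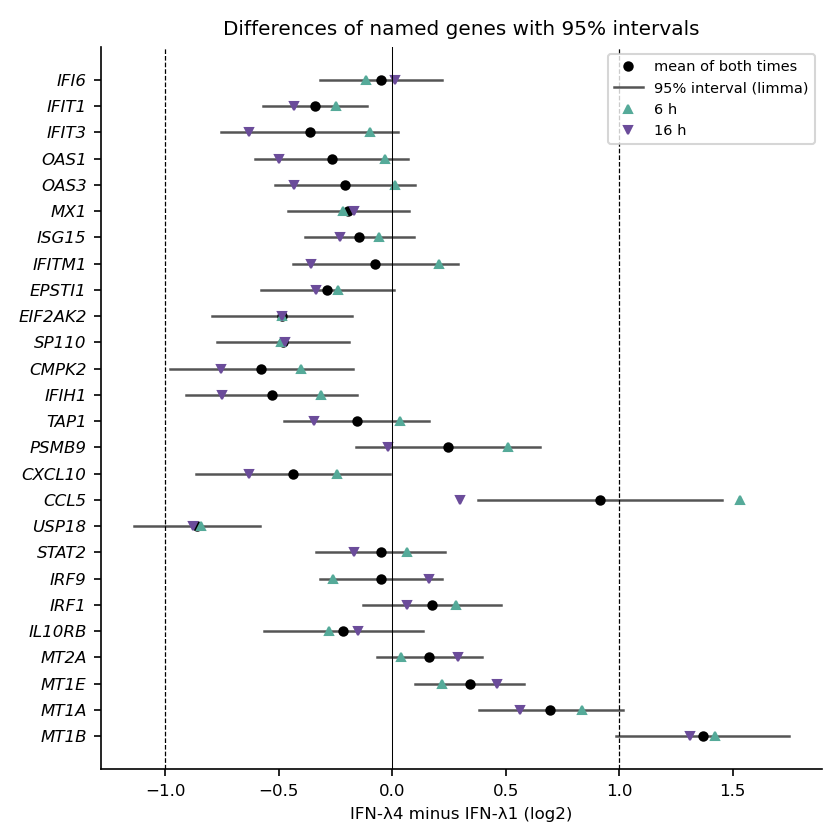
Difference between IFN-λ4 and IFN-λ1 in log2 units for 26 named genes, with the mean of both times as a black point, limma's 95% interval as a line, and the 6 h and 16 h differences as green and purple triangles. IFI6, STAT2 and IRF9 lie around 0, EIF2AK2, SP110, CMPK2 and IFIH1 have intervals below 0, MT1B lies past 2-fold at both times, and USP18 is shown on its brighter probe; none passed the adjusted test.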

How the data were processed

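The deposited table held 1 intensity per probe on each of 7 arrays, already scaled by the authors in a way not given in the sources used here. Values were set to at least 1, turned to log2 and quantile normalized over the 7 arrays. Of the probes, 24740 had 1 gene symbol in the platform annotation, 977 several and 6024 none; 1948 symbols were updated through the RefSeq gene table. Each of 18336 genes was represented by its brightest probe on average, and 12835 above the 30th percentile were kept.

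The 4 IFN-λ arrays were fitted with limma 3.58.1 in R 4.3.3 (time as a block, variance trend, Benjamini-Hochberg at 0.05). At each time a difference of single arrays was called at 2-fold. The number of arrays limits precision. A gene was marked as resting on a single spot where 1 array lay over 3 log2 units from the median of the other 6 and those spanned under 1.5. The members and lists were chosen with earlier results of these data known. Genes were named by a rule: up to 10 per direction by the smaller of both differences, up to 5 per direction at each time, 3 members per list by size of the mean difference, and a panel of interferon genes; other list members were named after their values were seen. On simulated data of 12835 genes limma recovered 100% of 2-fold and 4-fold differences with 16 false calls. Calling 2-fold at both times found 25% of the 2-fold and 100% of the 4-fold ones, with 1 false call. The simulation drew noise from moderated spreads and set each effect equal at both times, without extreme spots. Its shares therefore do not carry over to the real arrays, where limma called none of the 4 genes 2-fold higher at both times. Other scalings, filters, probe rules, thresholds and fits were tried. The labels do not say that arrays came from separate cultures, so p-values measure only the spread between these arrays, which may be technical. Python 3.11.15, pandas 2.3.3 and matplotlib 3.10.9 were used.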

Additional observations from a re-analysis of the deposited data

Results flagged for a closer look

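H3C12, a replication-dependent histone gene, had opposite differences at the 2 times. Its intensity was 644 in untreated cells, 236 with IFN-λ1 and 1201 with IFN-λ4 at 6 h, and 2687 and 494 at 16 h. IFN-λ4 was higher by 2.35 at 6 h and lower at 16 h, with -2.44, so the difference moved by -4.79 log2 units between the times. With 1 array per condition the change was not tested, and histone genes of one cluster may share probe signal.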

How the results depend on the processing

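limma called 0 genes in each direction with the 4 IFN-λ arrays normalized alone, with low values raised to the 30th percentile, with genes above the 50th percentile, without single-spot genes, with the 6 treated arrays, without the block for time and without the variance trend. It called 254 higher and 53 lower with median centring, where the spread was estimated as equal for all genes of a level and all genes shifted by a median of 0.17 at 6 h; 1 higher and 1 lower without the filter on dim genes; and 8 higher with the mean over probes. The cause was not tested.

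Genes 2-fold apart at 6 h were 34 higher and 216 lower with the deposited scaling, 161 and 159 without the filter on dim genes, and 34 and 34 above the 50th percentile. At 16 h they were 82 and 66 without the filter and 5 and 4 above the 50th percentile, and 11 were lower with median centring or the deposited scaling. At both times 16 were higher and 14 lower without the filter, and 2 higher above the 50th percentile. The 1.5-fold threshold gave 572 and 605 at 6 h, 262 and 77 at 16 h and 69 and 7 at both times; the 3-fold threshold gave 4 and 2, 0 and 2, and 0 higher. The cause was not tested beyond the numbers of genes that each filter or threshold admits.

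The antiviral effectors kept 73.3% to 76.2% lower at 16 h with medians of -0.21 to -0.23 under every scaling, filter and probe rule tried; at 6 h their median was 0.20 with median centring, beside 0.17 for all genes, and -0.04 with the deposited scaling. All 5 metallothioneins stayed higher at both times under these settings. Of the genes named, 36 passed limma with median centring, 5 of them also with the mean over probes (ABCA17P, AP3B2, MRGPRX1, MT1B and OR6P1). The mean difference of USP18 was -0.48 with the mean over probes. No paired analysis was possible beyond the block for time because each interferon has 1 array per time; the values at 6 h and at 16 h are those without the other pair.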

Other observations

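With the dim antiviral effectors included, which stand in no count above, 44 of 60 were lower with IFN-λ4 at 16 h, or 73.3%. Over all 18336 genes, dim ones included, the share was 50.6%. RSAD2, the enzyme viperin, had intensities of 6.4 in untreated cells, 170.2 with IFN-λ1 and 169 with IFN-λ4 at 6 h, and 255 and 143 at 16 h. IFIT2, a partner of IFIT1 and IFIT3, had 41.6 in untreated cells, 224 and 222 at 6 h, and 163 and 98.2 at 16 h. Both pairs coincided at 6 h and parted at 16 h by -0.83 and -0.73, at levels below the dim limit of 265.4. These 2 genes were chosen after their values were seen.

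From 6 h to 16 h, 132 genes moved by at least 2-fold with IFN-λ1 and 334 with IFN-λ4, against 139 genes 2-fold apart between the interferons at 6 h and 24 at 16 h. These differences share arrays, so they are values side by side.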
